A study of Mus musculus with 12 samples.

Results

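The genes described here are 38 genes of the presynaptic nerve terminal in adult mouse retina. They cover active zone scaffolds, proteins that prime and fuse synaptic vesicles, calcium sensors of release with their relatives, and proteins of the vesicle itself. The 38 members were picked by symbol and matched exactly to the gene names of the deposited gene table, which lists 55487 genes. All 38 were found, and all 38 were among the 16471 genes with a mean above 1 FPKM (read fragments scaled to both transcript length and library size) in at least 1 group. The table holds RNA-seq of whole retina in 6 groups of 2 libraries. WT retinas (C57BL/6J mice, B6J in the study), sh*Pax6* retinas (the same strain, infected with 2 μL of AAV2.7m8 carrying pU6-sh*Pax6*-GFP against *Pax6*) and JNK3 KO retinas (*Jnk3*-/- mice) each received either 1 μL of PBS or 1 μL of 40 mM NMDA, that is 40 nmol, into the vitreous and were taken 24 h later. NMDA overactivates glutamate receptors and kills retinal ganglion cells (RGCs) in this injury model, and the comparisons ask how the retina responded to it with and without *Pax6* knockdown or JNK3. Each library came from the pooled RNA of more than 3 retinas, and nothing in the sources used here says whether the 2 libraries of a group came from separate pools. Standard errors and p-values measure only the spread between libraries, which may be technical. No library came from retinas given the shScramble control, so the effects of viral infection and of knockdown cannot be told apart, and the U6 promoter drives the hairpin in every infected cell type, not in RGCs alone. The JNK3 KO mice lack JNK3 in all cells.

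A nerve terminal releases transmitter when calcium enters beside docked vesicles. RIM, Bassoon, Piccolo and ELKS proteins build the active zone, the Munc13 proteins prime vesicles, the SNARE proteins SNAP-25, syntaxin and VAMP pull the membranes together, synaptotagmins sense the calcium and complexins hold and time the fusion. The retina has synapses of different builds. Photoreceptors and bipolar cells release from ribbon synapses, whose ribbon is made of RIBEYE, a product of *Ctbp2*, and which use syntaxin 3 and complexins 3 and 4 and lack synapsins. Amacrine cells release from conventional synapses with syntaxin 1, complexins 1 and 2 and synapsins, and RGCs carry their own terminals out of the retina to the brain.

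The targeted genes were checked first. *Pax6* stood at 173 and 177 FPKM after PBS and 55.4 and 53.8 FPKM after NMDA in WT, at 94.6 and 92.8 against 67.5 and 58.7 FPKM in sh*Pax6* and at 187 and 191 against 129 and 138 FPKM in JNK3 KO libraries. It was lower in both sh*Pax6* PBS libraries than in both WT PBS libraries, and after NMDA the sh*Pax6* libraries were not below the WT libraries. *Mapk10*, which encodes JNK3, was listed at 42.8 and 50.7 FPKM after PBS and 8.98 and 6 FPKM after NMDA in WT, at 20.9 and 21.3 against 16.2 and 8.85 FPKM in sh*Pax6* and at 9.47 and 8.75 against 6.65 and 13.8 FPKM in JNK3 KO libraries. It was not at 0 in the JNK3 KO libraries, which a deletion of part of the gene allows, and it was also low in the WT NMDA libraries. The WT NMDA libraries stood apart in another way, because their FPKM summed to 805627 and 820180 against 541210 to 576922 in the other 10. Replicate libraries were close, with a median absolute log2 gap of 0.04 to 0.11 over the 38 members and of 0.11 to 0.25 over all genes tested. Markers of RGCs and amacrine cells were present in all 6 groups. In bulk RNA, fewer cells of a type and less RNA per cell cannot be told apart.

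On the deposited values, none of the 38 presynaptic genes was called higher after NMDA in any genotype, and 19 were called lower in at least 1. A change was called at an adjusted p under 0.05 over all 16471 genes and an absolute log2 difference above 1, that is more than 2-fold, with limma on log2(FPKM + 0.1). In WT retinas 18 of the 38 members were called lower (47.4%), where 20.9% of all genes tested were called lower. In sh*Pax6* retinas 10 were called lower (26.3%, all genes 4.94%), and in JNK3 KO retinas 4 were (10.5%, all genes 1.87%). The median log2 difference of the members was -0.99 in WT, -0.48 in sh*Pax6* and -0.19 in JNK3 KO retinas, beside -0.09, 0.10 and -0.01 over all genes tested. Without the fold limit, 29 members passed the adjusted p downwards and 4 upwards in WT retinas (all genes 33.8% and 26%), 25 downwards in sh*Pax6* (all genes 11%) and 13 downwards in JNK3 KO retinas (all genes 6.1%). Scaled to TPM (FPKM rescaled so that every library sums to the same total), the WT count was 27 lower and 0 higher, where 35.7% of all genes were lower and 5.52% higher (14.2% higher on the deposited scale) and their median moved to -0.66. With TPM and no fold limit, 34 members passed the adjusted p downwards and 0 upwards in WT retinas. The map of the 38 genes across the 12 libraries shows which members stood low where.

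**Figure D1:**
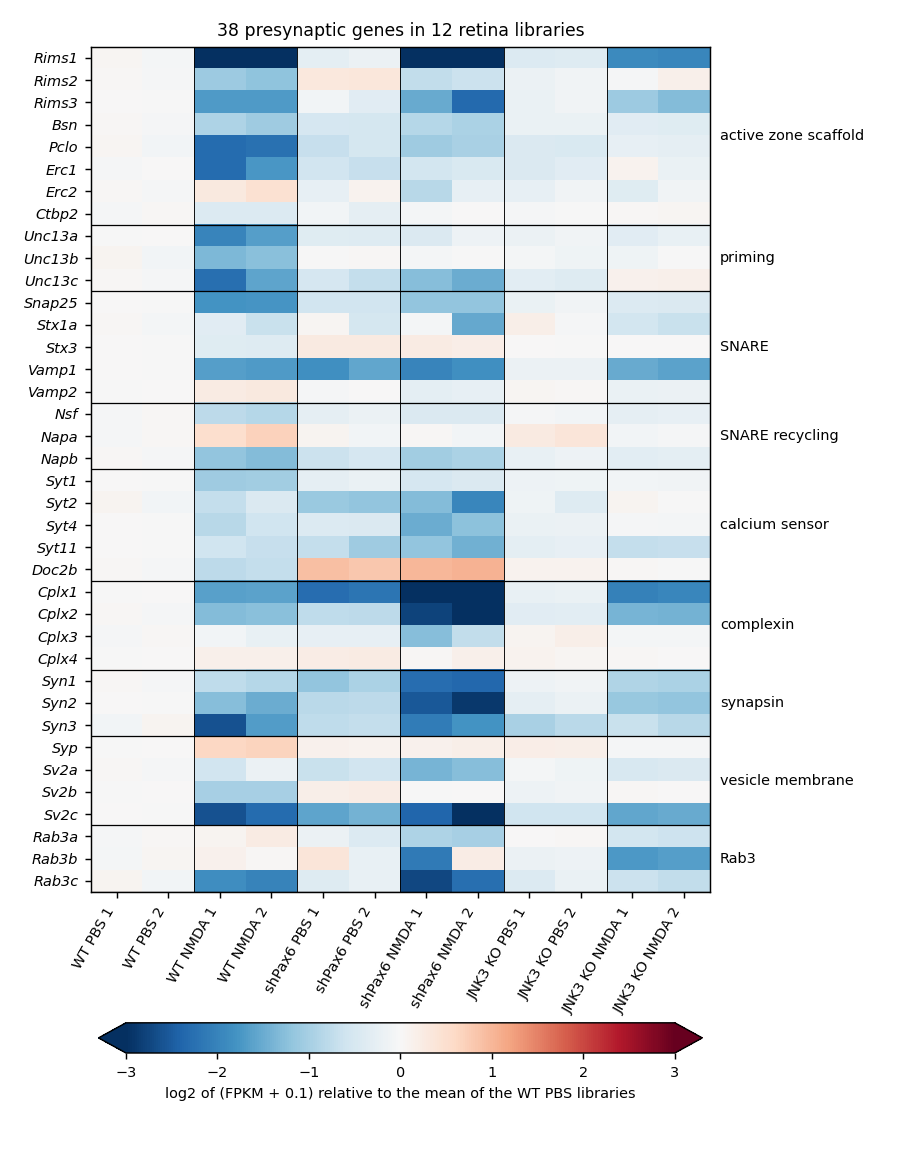
Colour gives log2 of (FPKM + 0.1) in each of the 12 libraries (columns) relative to the mean of the 2 WT PBS libraries, for each of the 38 members (rows, grouped by role), and the scale is cut at -3 and 3. Most members are blue in the WT NMDA libraries, *Rims1* and the first 2 complexins are blue after NMDA in each genotype, and *Cplx1*, *Vamp1* and *Sv2c* are already blue in the shPax6 PBS libraries.

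The WT response moved with gene length, so WT values are set beside a second value from which each library's dependence on spliced length had been subtracted. Among all genes tested, those over 4 kb had a median log2 difference of -1.17 after NMDA in WT retinas and 57.4% of them were called lower, whereas those under 2 kb had a median of 0.62 and 6.02% were called lower. The 16 members over 4 kb had a median of -1.29, with 11 called lower, and the 7 members under 2 kb had a median of 0.08, with 1 called lower. Spearman's rho between length and log2 difference was -0.565 over 16452 genes and -0.572 over the 38 members in WT, -0.173 and -0.0023 in sh*Pax6* and 0.229 and 0.322 in JNK3 KO retinas. These coefficients are descriptions across genes of the same libraries, and genes are not independent replicates. After the correction, the WT count was 5 lower and 1 higher, the median was -0.30, and 13.2% of the members were called lower against 11.3% of all genes (6.73% higher). The corrected counts in the other genotypes were 10 lower (all genes 5.72%) in sh*Pax6* and 5 lower (all genes 1.71%) in JNK3 KO retinas. The cause of the WT trend was not tested.

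**Figure D2:**
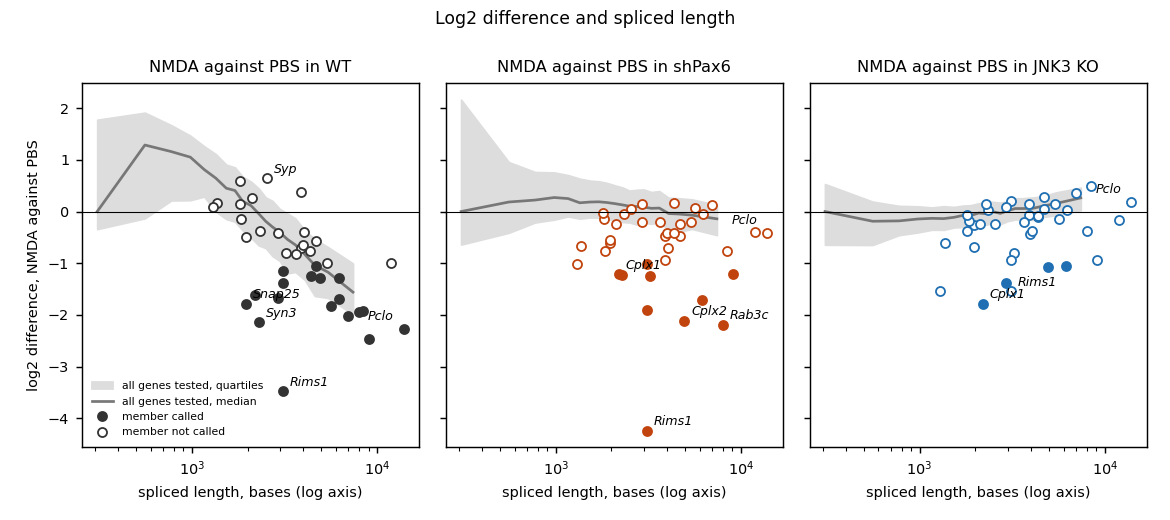
Each panel plots the log2 difference between NMDA and PBS libraries against spliced length in bases (log axis) for the 38 members (circles, filled where called) over the median (grey line) and quartiles (grey band) of all genes tested in 20 bins of length, in WT, shPax6 and JNK3 KO retinas. In WT the members run downwards with length as the grey line does, with *Rims1*, *Snap25* and *Syn3* among those below it and *Syp* among those above it, whereas in the other 2 genotypes the line stays close to 0.

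Of the 18 members that fell in WT retinas, *Rims1*, *Snap25*, *Vamp1*, *Cplx1* and *Syn3* stayed called after the length correction. *Cplx1*, *Cplx2* and *Rims3* were called lower in all 3 genotypes, each against its own PBS libraries, and *Cplx1* alone stayed so after the correction. A further 6 were called lower in both WT and sh*Pax6* retinas on the deposited values (*Rab3c*, *Rims1*, *Rims2*, *Sv2c*, *Syn2* and *Syn3*), and *Vamp1* in WT and JNK3 KO retinas. The remaining lists set the scale for these counts. Of 58 other presynaptic genes tested, 25 were called lower and 1 higher in WT (15 and 2 after the correction), 11 lower and 1 higher in sh*Pax6* and 5 lower and 0 higher in JNK3 KO retinas. The 2 largest falls among them in WT were *Stxbp5l*, which encodes a syntaxin-binding tomosyn, at -3.22 and *Slc17a6*, the vesicular glutamate transporter of RGCs, at -2.96 on the log2 scale. The only rise was *Cabp4*, a calcium-binding protein of photoreceptor terminals, at 1.20, which was 0.72 and not called after the correction.

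**Figure D3:**
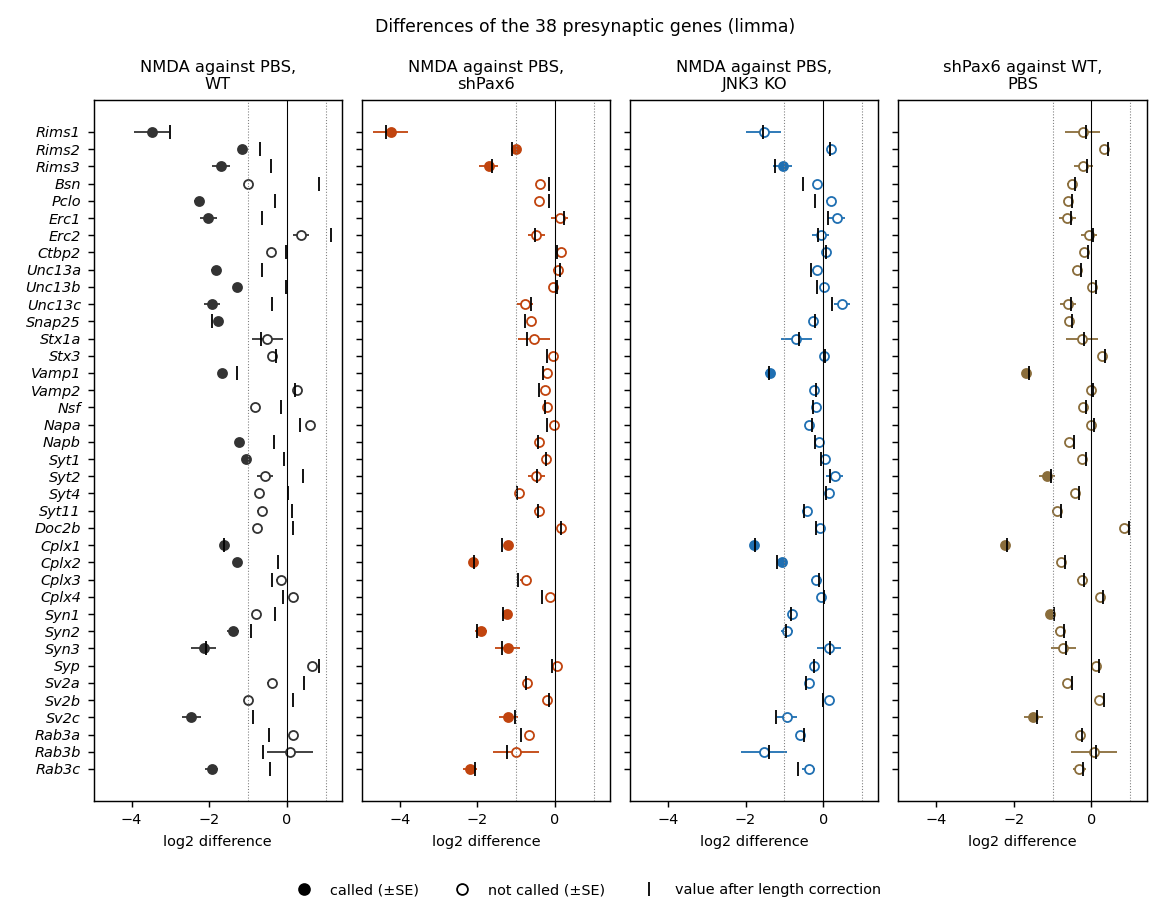
Points give the log2 difference of each member with its standard error (bars) in 4 comparisons, filled where called, and the short vertical lines give the value after the length correction. The dotted lines mark -1 and 1. In WT many lines lie far to the right of their points, whereas in the other 3 comparisons most lie nearer to them. In JNK3 KO retinas *Bsn* goes from -0.16 to -0.53, *Pclo* from 0.19 to -0.22 and *Sv2c* from -0.93 to -1.23.

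The complexins bind the assembled SNARE complex and clamp it until calcium arrives. *Cplx1* (chr5:108518554-108550024 on GRCm38, minus strand) was listed at 64.6 and 66.4 FPKM after PBS and 21.3 and 21.4 FPKM after NMDA in WT, at 13.3 and 14.3 against 6.21 and 5.6 FPKM in sh*Pax6* and at 55.8 and 57.3 against 15.9 and 16.9 FPKM in JNK3 KO libraries. The libraries of each group lay close together, the NMDA libraries lay below the PBS libraries of the same genotype without overlap, and even the sh*Pax6* PBS libraries lay below the WT NMDA libraries. The log2 difference after NMDA was -1.61 (SE 0.08, adjusted p = 4.22e-07) in WT, -1.21 (SE 0.08, adjusted p = 1.07e-05) in sh*Pax6* and -1.78 (SE 0.08, adjusted p = 8.35e-06) in JNK3 KO retinas. Length-corrected values were -1.62, -1.37 and -1.75. The response in WT did not differ from that in JNK3 KO retinas beyond the error, with a difference of 0.17 (SE 0.12, adjusted p = 0.266), and it differed from that in sh*Pax6* retinas by -0.40 (SE 0.12, adjusted p = 0.0195), under the fold limit.

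*Cplx2* was listed at 49.8 and 46.9 FPKM after PBS and 19.5 and 20.3 FPKM after NMDA in WT, at 28.3 and 27.9 against 6.95 and 5.96 FPKM in sh*Pax6* and at 38.4 and 38.8 against 18.4 and 18.1 FPKM in JNK3 KO libraries. Its lowest libraries were those of sh*Pax6* retinas after NMDA, and in each genotype the NMDA libraries were below the PBS libraries. It fell by 1.28, 2.11 and 1.07 on the log2 scale in WT, sh*Pax6* and JNK3 KO retinas, and the WT value of -1.28 became -0.23 (adjusted p = 0.0543) after the length correction. *Cplx2* in WT thus lost its call, whereas the sh*Pax6* and JNK3 KO values became -2.08 and -1.20. The ribbon complexins behaved otherwise. *Cplx3* was listed at 208 and 221 FPKM after PBS and 204 and 183 FPKM after NMDA in WT, at 181 and 182 against 89.2 and 128 FPKM in sh*Pax6* and at 227 and 242 against 207 and 206 FPKM in JNK3 KO libraries. Only the sh*Pax6* NMDA libraries lay well below the rest, with -0.76 (SE 0.14, adjusted p = 0.00286), a difference that passed the adjusted p and not the fold limit, and the 2 libraries themselves were far apart. *Cplx4*, the most abundant complexin, was listed at 318 and 321 FPKM after PBS and 354 and 353 FPKM after NMDA in WT, at 371 and 379 against 328 and 352 FPKM in sh*Pax6* and at 346 and 335 against 328 and 324 FPKM in JNK3 KO libraries and ranged less than any other complexin, with log2 differences of 0.15, -0.14 and -0.06 after NMDA.

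Synapsins coat vesicles and tie them into the reserve pool. *Syn1*, the most abundant, was listed at 45.7 and 43 FPKM after PBS and 26.2 and 24.6 FPKM after NMDA in WT, at 19.4 and 22.9 against 9.08 and 8.59 FPKM in sh*Pax6* and at 39.8 and 41.5 against 23.5 and 22.9 FPKM in JNK3 KO libraries. Both sh*Pax6* groups were below the WT group under the same injection, and all NMDA libraries were below their PBS libraries. *Syn1* was called lower in sh*Pax6* retinas, with -1.25 (SE 0.09, adjusted p = 1.98e-05), beside -0.80 (SE 0.09, adjusted p = 6.78e-05) in WT (-0.30 after the length correction) and -0.80 (SE 0.09, adjusted p = 0.00115) in JNK3 KO retinas, and the WT and JNK3 KO responses differed by 0.00. *Syn2* was listed at 17.3 and 16.9 FPKM after PBS and 7.04 and 6.01 FPKM after NMDA in WT, at 9.71 and 9.83 against 2.87 and 2.21 FPKM in sh*Pax6* and at 14.1 and 15.1 against 7.7 and 7.48 FPKM in JNK3 KO libraries, again without overlap between NMDA and PBS. It fell in WT with -1.38 (SE 0.15, adjusted p = 3.29e-05) and in sh*Pax6* with -1.91 (SE 0.15, adjusted p = 2.03e-05), and the WT value after the length correction was -0.92, short of the fold limit. *Syn3* was the least abundant synapsin, at 3.89 and 4.33 FPKM after PBS and 0.59 and 1.22 FPKM after NMDA in WT, at 2.4 and 2.48 against 0.88 and 1.11 FPKM in sh*Pax6* and at 2.05 and 2.29 against 2.55 and 2.28 FPKM in JNK3 KO libraries, near the filter on low values. The WT and sh*Pax6* NMDA libraries were below their PBS libraries, and those of JNK3 KO retinas overlapped. *Syn3* fell in WT with -2.14 (SE 0.32, adjusted p = 3e-04), which was -2.09 after the length correction, and the JNK3 KO value was 0.15 (SE 0.32, adjusted p = 0.85). The responses of WT and JNK3 KO retinas differed by -2.29 (SE 0.45, adjusted p = 0.0022), and this held after the correction at -2.26 (adjusted p = 0.0049). In sh*Pax6* retinas *Syn3* had -1.22 (SE 0.32, adjusted p = 0.0179), a call lost at -1.24 without sh*Pax6* PBS replicate 1, at -1.20 without sh*Pax6* PBS replicate 2 and at -1.07 without sh*Pax6* NMDA replicate 1.

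Syntaxins also tell the conventional from the ribbon terminal. *Stx1a*, the syntaxin of conventional terminals, was listed at 6.13 and 5.74 FPKM after PBS and 4.7 and 3.71 FPKM after NMDA in WT, at 6.14 and 4.06 against 5.71 and 1.98 FPKM in sh*Pax6* and at 6.68 and 5.83 against 3.99 and 3.69 FPKM in JNK3 KO libraries. The 2 sh*Pax6* NMDA libraries were far apart and overlapped the PBS libraries, and none of the responses was called, with -0.50 (SE 0.41, adjusted p = 0.329) in WT. *Stx3*, the syntaxin of ribbon terminals, was listed at 323 and 321 FPKM after PBS and 252 and 248 FPKM after NMDA in WT, at 389 and 388 against 380.2 and 368 FPKM in sh*Pax6* and at 323 and 321 against 324 and 327 FPKM in JNK3 KO libraries. The WT NMDA libraries were the lowest and both sh*Pax6* groups the highest, with -0.37 (SE 0.04, adjusted p = 2.12e-05) after NMDA in WT retinas, or -0.28 after the length correction, and 0.27 (SE 0.04, adjusted p = 0.0013) between sh*Pax6* and WT under PBS, both under the fold limit. Among the 6 members of conventional synapses, 4 were called lower after NMDA in WT, 5 in sh*Pax6* and 2 in JNK3 KO retinas, with medians of -1.33, -1.23 and -0.87. Among the 5 members of ribbon synapses (*Ctbp2*, *Cplx3*, *Cplx4*, *Stx3* and *Sv2b*), 0 were called in any of the 3 responses by limma, with medians of -0.37, -0.14 and 0.02, and 4, 3 and 0 of them passed the adjusted p with no fold limit. After the length correction the WT medians were -0.79 and -0.11. The difference between the lists was not tested. *Unc13b* and *Rims2*, which photoreceptor terminals also use, were not in the ribbon list. Both were called lower after NMDA in WT, as was *Rims2* in sh*Pax6* retinas.

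**Figure D4:**
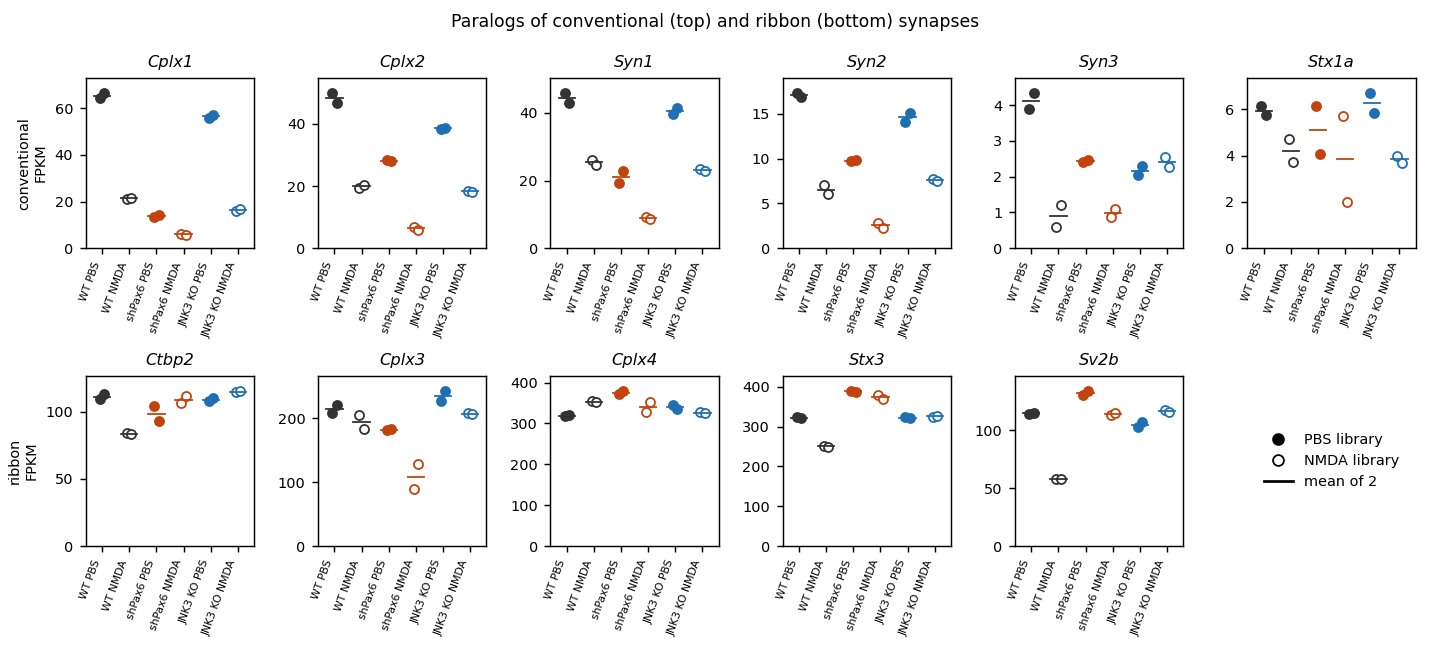
FPKM of each library is shown for the 6 members of conventional synapses (top) and the 5 of ribbon synapses (bottom), with PBS libraries filled, NMDA libraries open, and a line at the mean of 2 libraries. Each axis starts at 0 and has its own scale. *Cplx1*, *Cplx2*, *Syn1* and *Syn2* step down from PBS to NMDA in every genotype, whereas *Cplx4* and *Stx3* keep above 240 FPKM in all 12 libraries.

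The summed level of the 6 conventional members can be set beside that of markers of RGCs and amacrine cells. The conventional members summed to 183 to 187 FPKM in WT PBS, 77.3 to 79.3 in WT NMDA, 79.2 to 81.5 in sh*Pax6* PBS, 25.45 to 31.7 in sh*Pax6* NMDA, 157 to 161 in JNK3 KO PBS and 71.4 to 72.1 in JNK3 KO NMDA libraries. The sum of 14 RGC markers over the same groups was 631 to 652, 339.7 to 358, 203 to 203.6, 76.0 to 84.1, 592 to 633 and 178 to 179.8 FPKM. The sum of 12 amacrine markers, which include *Pax6* itself, was 568 to 574, 193 to 205, 376 to 390.4, 174 to 189.7, 529 to 546 and 406.5 to 419 FPKM. The 3 sums did not run in parallel. On the deposited FPKM, WT NMDA, sh*Pax6* PBS and JNK3 KO NMDA libraries were alike in the conventional members. None of these sums is scaled to a common library total. All FPKM summed to 805627 and 820180 in WT NMDA, 560030 and 553263 in sh*Pax6* PBS and 560377 and 566310 in JNK3 KO NMDA libraries. Among these 3 groups, and relative to these totals, the conventional members stood lowest in WT NMDA libraries. The WT NMDA libraries were the highest of these in RGC markers and the lowest in amacrine markers. Of the RGC markers 11, 10 and 7 were called lower after NMDA in WT, sh*Pax6* and JNK3 KO retinas, and of the amacrine markers 7, 10 and 2. The WT counts were 12 and 5 with the correction. Of these markers, *Pou4f2* and *Pou4f3* were listed at 0 in sh*Pax6* NMDA replicate 2 and *Th* in sh*Pax6* NMDA replicate 1, and all the others were above 0 in every library. Of all genes tested, 20.9%, 4.94% and 1.87% were called lower after NMDA in WT, sh*Pax6* and JNK3 KO retinas. The shares called higher were 14.2%, 8.64% and 0.777%. With length corrected the WT shares were 11.3% lower and 6.73% higher. Markers of other cells moved too. The sum of 8 neutrophil markers was 212 to 236 FPKM in WT PBS, 1953 to 1990 in WT NMDA, 5.20 to 6.09 in sh*Pax6* PBS, 67.0 to 74.3 in sh*Pax6* NMDA, 156 to 169.8 in JNK3 KO PBS and 13.3 to 14.2 in JNK3 KO NMDA libraries, and 6 of the 8 rose after NMDA in WT and in sh*Pax6* and 4 fell in JNK3 KO retinas. Of 6 horizontal cell markers, 5 fell after NMDA in WT and 0 in the other 2 genotypes, and of 10 bipolar markers 3 fell and 1 rose in WT and 0 were called in the others. With length corrected, the WT counts were 2 lower for horizontal and 1 lower and 0 higher for bipolar markers, and 6 neutrophil markers were still higher. Of 9 cone markers, 1 fell and 2 rose after NMDA in WT, or 2 and 0 with length corrected. In sh*Pax6* retinas 7 cone markers fell and in JNK3 KO retinas 2 did. Of 10 rod markers 2 rose in WT, or 0 with length corrected, and 0 were called in the other genotypes on the deposited values. Of 10 microglia and macrophage markers, 3 rose and 3 fell in WT, or 1 and 2 with length corrected. In sh*Pax6* retinas 6 of them rose, and in JNK3 KO retinas 2 fell. Of 9 Müller glia markers, 1 rose and 4 fell in WT, or 1 and 1 with length corrected, and 3 rose in sh*Pax6* retinas. Of 3 markers of the retinal pigment epithelium tested, 1 fell in WT and 3 in sh*Pax6* retinas. *Ly6g*, which defines neutrophils, was listed at 0 in all 4 sh*Pax6* and both JNK3 KO NMDA libraries. The part of these cells in the presynaptic values was not tested.

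Active zone scaffolds hold calcium channels and vesicles together. *Rims1*, which encodes a RIM that docks Rab3 and binds Munc13, had the largest fall of all members in WT and in sh*Pax6* retinas. It was listed at 33.1 and 30.2 FPKM after PBS and 3.66 and 2.06 FPKM after NMDA in WT, at 26.01 and 28.1 against 0.7 and 2.47 FPKM in sh*Pax6* and at 23.8 and 24.1 against 8.33 and 8.07 FPKM in JNK3 KO libraries. The WT and sh*Pax6* NMDA libraries lay below 4 FPKM, the JNK3 KO NMDA libraries near 8 FPKM, and all PBS libraries above 23 FPKM. *Rims1-207*, with 657 coding bases and a start 490189 bases inside the gene, made up 73.3% of *Rims1* transcripts in WT PBS libraries. This share rests on the split of reads by RSEM. In WT its mean went from 23.02 to 0.84 FPKM after NMDA. The longer *Rims1-201*, *Rims1-203* and *Rims1-206* went from 2.58 to 1.72, from 2.04 to 0 and from 1.27 to 0.14 FPKM. The log2 difference was -3.48 (SE 0.45, adjusted p = 0.000133) in WT and -4.24 (SE 0.45, adjusted p = 0.000158) in sh*Pax6* retinas, and -3.02 in WT after the length correction. In JNK3 KO retinas it was -1.54 (SE 0.45, adjusted p = 0.0651) and was not called. The WT and JNK3 KO responses differed by -1.94 (SE 0.64, adjusted p = 0.0302), a call that was kept in only 4 of the 12 fits that left out 1 library: it was lost without either WT PBS library (-1.88 and -2.01), without WT NMDA replicate 2 (-1.54), without sh*Pax6* PBS replicate 2 (-1.94) and without any of the 4 JNK3 KO libraries (-1.92 to -1.96), and it was -1.46 and not called after the length correction.

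*Rims2*, the RIM of photoreceptor terminals as well, was listed at 63.3 and 60.1 FPKM after PBS and 28.9 and 26.5 FPKM after NMDA in WT, at 76.7 and 77.5 against 37.1 and 39.2 FPKM in sh*Pax6* and at 54.3 and 57.7 against 59.9 and 68.6 FPKM in JNK3 KO libraries. The WT and sh*Pax6* NMDA libraries were below all PBS libraries, and the JNK3 KO NMDA libraries were not. It fell with -1.15 (SE 0.08, adjusted p = 2.67e-06) in WT and -1.01 (SE 0.08, adjusted p = 2.92e-05) in sh*Pax6* retinas, beside 0.20 (SE 0.08, adjusted p = 0.181) in JNK3 KO retinas. The WT value was -0.69 after the length correction, and the sh*Pax6* value was -0.97 and not called without sh*Pax6* NMDA replicate 1. WT and JNK3 KO responses differed by -1.35 (SE 0.12, adjusted p = 1.53e-05) and by -0.86, short of the fold limit, after the correction. *Rims3*, a short RIM with only the last C2 domain, ranged from 3.16 to 16.5 FPKM over the 12 libraries and fell in all 3 genotypes with -1.70, -1.71 and -1.05. The JNK3 KO call was lost without WT PBS replicate 1 (-1.05) and without each of the 4 JNK3 KO libraries (-0.94 to -1.16), and the WT value was -0.42 and not called after the length correction.

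Piccolo and Bassoon are giant scaffolds and the longest members. *Pclo* was listed at 17.9 and 16.2 FPKM after PBS and 3.36 and 3.55 FPKM after NMDA in WT, at 10.5 and 11.9 against 8.05 and 8.68 FPKM in sh*Pax6* and at 12.6 and 12.3 against 14.4 and 14 FPKM in JNK3 KO libraries. Both WT NMDA libraries were far below all others. The fall of -2.27 in WT was -0.31 after the length correction, and its differences from the sh*Pax6* and JNK3 KO responses, -1.85 (SE 0.16, adjusted p = 2.46e-05) and -2.45 (SE 0.16, adjusted p = 3.12e-06), became -0.15 and -0.09. *Bsn* ranged from 6.10 to 13.3 FPKM with -0.99 in WT, just short of the fold limit, and its differences between responses changed sign with the correction, from -0.61 to 1.00 against sh*Pax6* and from -0.83 to 1.37 against JNK3 KO retinas. The ELKS genes parted at the gene level. *Erc1* was listed at 5.4 and 5.59 FPKM after PBS and 1.03 and 1.57 FPKM after NMDA in WT, at 3.67 and 3.37 against 3.7 and 3.99 FPKM in sh*Pax6* and at 4.03 and 4.3 against 5.96 and 4.76 FPKM in JNK3 KO libraries, lowest in WT NMDA, with -2.03 (SE 0.22, adjusted p = 3.99e-05) in WT, -2.15 (SE 0.31, adjusted p = 0.000469) for the difference from sh*Pax6* and -2.37 (SE 0.31, adjusted p = 0.000196) for that from JNK3 KO retinas. None of the 3 stayed called after the length correction, at -0.64, -0.87 and -0.76. *Erc2*, the ELKS enriched in brain, ranged from 4.75 to 11.7 FPKM, was 0.37 and not called in WT, and was 1.13 (adjusted p = 0.00188) after the correction, the only member then called higher. Its transcripts did not move together in WT. The short *Erc2-206*, of 1099 bases, had a mean of 2.01 FPKM after PBS and 8.98 FPKM after NMDA. The longer *Erc2-201* and *Erc2-205*, of 6083 and 6233 bases, went from 1.69 to 0.47 and from 3.51 to 0.52 FPKM. The correction used the same weighted length for *Erc2*, 3896 bases, in every library.

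*Ctbp2* encodes both the corepressor CtBP2 and the ribbon protein RIBEYE. It was the most abundant scaffold at 109 and 113 FPKM after PBS and 83.8 and 83.4 FPKM after NMDA in WT, at 104 and 92.9 against 106 and 111 FPKM in sh*Pax6* and at 108 and 109.9 against 115 and 115 FPKM in JNK3 KO libraries. Only the WT NMDA libraries lay below the rest, with -0.41 (SE 0.06, adjusted p = 0.000318), and the value after the length correction was -0.03. Its transcripts showed more. Transcript *Ctbp2-214* starts inside the gene, 109106 bases after the first start, and carries the longest coding sequence of the *Ctbp2* transcripts described here, 2964 bases. The promoter in front of it is printed because it is the one used for the ribbon form. The 250 bases end just before the RefSeq start (chr7:133015248-133015497, minus strand, GRCm38.p6), and the capitals mark TATAAA read on both strands, where the matches overlap.
Ctbp2: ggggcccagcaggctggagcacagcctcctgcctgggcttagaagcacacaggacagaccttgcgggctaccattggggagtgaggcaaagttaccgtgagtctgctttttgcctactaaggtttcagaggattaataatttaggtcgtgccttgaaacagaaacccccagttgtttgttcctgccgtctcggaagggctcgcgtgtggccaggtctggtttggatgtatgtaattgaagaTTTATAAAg
TATAAA stood in 5 of 39 promoters of the 31 members that the RefSeq table holds (12.8%) and in 12.4% of all 32851 promoters, searched on both strands over the same 250 bases.

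*Ctbp2-214* was listed at 50.2 and 46.5 FPKM after PBS and 11.9 and 8.58 FPKM after NMDA in WT, at 50.05 and 46.6 against 43.6 and 51.2 FPKM in sh*Pax6* and at 39.4 and 40.95 against 49.98 and 45.7 FPKM in JNK3 KO libraries. The WT NMDA libraries were the only ones below 39 FPKM. The log2 difference was -2.24 (SE 0.15, adjusted p = 1.86e-05) in WT, -1.16 (adjusted p = 0.00128) after the length correction, -0.03 (SE 0.15, adjusted p = 0.969) in sh*Pax6* and 0.25 (SE 0.15, adjusted p = 0.717) in JNK3 KO retinas, and the WT response differed from the other 2 by -2.21 (SE 0.22, adjusted p = 0.000312) and -2.49 (SE 0.22, adjusted p = 0.000119). The shorter *Ctbp2-209*, with 1260 coding bases and a start near the front of the gene, was listed at 15.5 and 22.3 FPKM after PBS and 59.97 and 63.4 FPKM after NMDA in WT, at 6.5 and 8.75 against 19.8 and 19.4 FPKM in sh*Pax6* and at 26.96 and 24.02 against 19.2 and 17.6 FPKM in JNK3 KO libraries and moved the other way in WT, with 1.72 (SE 0.19, adjusted p = 0.000263). It also rose in sh*Pax6* retinas with 1.37 (SE 0.19, adjusted p = 0.00458), from a PBS level below that of WT. *Ctbp2-209* made up 17.0% of the summed *Ctbp2* transcripts in WT PBS and 73.8% in WT NMDA libraries, and *Ctbp2-214* 43.5% and 12.3%. These shares rest on the split of reads among overlapping transcripts by RSEM and are uncertain for that reason.

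Munc13 proteins open syntaxin and prime vesicles for release. *Unc13b*, the most abundant of the 3 and the Munc13 of photoreceptor ribbons, was listed at 73.99 and 66.1 FPKM after PBS and 27.4 and 29.5 FPKM after NMDA in WT, at 69.4 and 71.9 against 67.7 and 69.7 FPKM in sh*Pax6* and at 67.3 and 64.3 against 64.1 and 69.8 FPKM in JNK3 KO libraries. Both WT NMDA libraries lay below 30 FPKM and the other 10 libraries above 64 FPKM. The fall of -1.29 in WT became -0.01 after the length correction, and it was 0.35 and not called when the longest annotated transcript gave the length. *Unc13a* was listed at 27.1 and 27.4 FPKM after PBS and 6.86 and 8.55 FPKM after NMDA in WT, at 21.3 and 20.8 against 20.04 and 24.4 FPKM in sh*Pax6* and at 24.2 and 25.4 against 21.4 and 23.4 FPKM in JNK3 KO libraries and *Unc13c*, which is otherwise known from the cerebellum, at 9.74 and 9.4 FPKM after PBS and 1.92 and 3.13 FPKM after NMDA in WT, at 6.72 and 5.77 against 3.9 and 3.36 FPKM in sh*Pax6* and at 7.64 and 7.26 against 10.5 and 10.6 FPKM in JNK3 KO libraries. For both, the WT NMDA libraries were the lowest, with -1.82 (SE 0.13, adjusted p = 2.45e-06) and -1.92 (SE 0.21, adjusted p = 4.59e-05) in WT. With the correction they were -0.63 and -0.38 and not called. The WT responses of *Unc13a*, *Unc13b* and *Unc13c* differed from those of sh*Pax6* retinas by -1.89, -1.25 and -1.15 and from those of JNK3 KO retinas by -1.67, -1.32 and -2.41. None of these 6 differences stayed called after the length correction, with -0.76, -0.05 and 0.25 and with -0.31, 0.16 and -0.59. Without WT NMDA replicate 1, the difference of *Unc13c* from sh*Pax6* retinas was -0.82 and was not called.

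The SNARE proteins carry out fusion. *Snap25* (chr2:136713453-136782428, plus strand), a SNARE of the plasma membrane and the most abundant member in the WT PBS and JNK3 KO libraries, was listed at 636 and 627 FPKM after PBS and 182 and 185 FPKM after NMDA in WT, at 424 and 425 against 278 and 279.5 FPKM in sh*Pax6* and at 549 and 587 against 475 and 471 FPKM in JNK3 KO libraries. The WT NMDA libraries were far below all others, the sh*Pax6* NMDA libraries came next, and in each genotype the NMDA libraries lay below the PBS libraries without overlap. *Snap25*, with a weighted spliced length of 1961 bases, fell in WT with -1.78 (SE 0.04, adjusted p = 1.45e-08). This was -1.94 (adjusted p = 8.35e-08) after the length correction. The sh*Pax6* and JNK3 KO values were -0.61 (SE 0.04, adjusted p = 1e-05) and -0.26 (SE 0.04, adjusted p = 0.00465), both under the fold limit. The WT response differed from the sh*Pax6* response by -1.18 (SE 0.06, adjusted p = 1.77e-06) and from the JNK3 KO response by -1.52 (SE 0.06, adjusted p = 3.54e-07), and after the correction by -1.16 and -1.74. *Snap25* was the only member whose difference was called against both genotypes with and without the length correction. Both differences were called in 11 of 12 alternative settings, and with the longest annotated transcript as the length they were -0.47 and -0.80 and not called. *Vamp2*, the main vesicle SNARE of most neurons, ranged from 306 to 461 FPKM and was not called, with 0.27, -0.25 and -0.24 after NMDA.

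*Vamp1*, a vesicle SNARE of fast synapses, stood at a low level in PBS-injected sh*Pax6* retinas. *Vamp1* (chr6:125215551-125245964, plus strand) was listed at 37.4 and 36.9 FPKM after PBS and 11.7 and 11.4 FPKM after NMDA in WT, at 10.4 and 12.6 against 9.35 and 10.4 FPKM in sh*Pax6* and at 32.95 and 32.7 against 12.96 and 12.1 FPKM in JNK3 KO libraries. The WT PBS and JNK3 KO PBS libraries were all above 32 FPKM and the other 8 all below 13 FPKM. It fell after NMDA in WT with -1.67 (SE 0.11, adjusted p = 1.52e-06), still called at -1.29 after the length correction, and in JNK3 KO retinas with -1.38 (SE 0.11, adjusted p = 0.00013), whereas in sh*Pax6* retinas the NMDA and PBS libraries overlapped, with -0.21 (SE 0.11, adjusted p = 0.18). The WT response differed from the sh*Pax6* response by -1.47 (SE 0.15, adjusted p = 7.3e-05), which was -0.97 (adjusted p = 0.00126) and just under the fold limit after the length correction. The 2 main transcripts, which start 30 bases apart and hold 354 and 351 coding bases, did not move together. *Vamp1-201* was listed at 26.7 and 25.4 FPKM after PBS and 8.97 and 8.21 FPKM after NMDA in WT, at 2.1 and 4.26 against 0 and 0 FPKM in sh*Pax6* and at 23.3 and 24.6 against 2.67 and 2.6 FPKM in JNK3 KO libraries and *Vamp1-203* at 9.07 and 10.4 FPKM after PBS and 2.41 and 2.59 FPKM after NMDA in WT, at 7.72 and 7.32 against 8.04 and 7.63 FPKM in sh*Pax6* and at 8.8 and 7.36 against 8.66 and 8.49 FPKM in JNK3 KO libraries. *Vamp1-201* was highest in the WT and JNK3 KO PBS libraries and at 0 in both sh*Pax6* NMDA libraries, whereas *Vamp1-203* stood between 7 and 11 FPKM in all libraries but those of WT NMDA. *Vamp1-201* was called lower in all 3 NMDA responses and, with -3.08 (SE 0.31, adjusted p = 0.00237), in sh*Pax6* against WT retinas under PBS. Among the 3 responses and the 2 comparisons under PBS, *Vamp1-203* was called lower only in WT after NMDA, with -1.92 (SE 0.16, adjusted p = 5.36e-05). Its log2 differences after NMDA were 0.06 in sh*Pax6* and 0.09 in JNK3 KO retinas. The WT response of *Vamp1-201* minus that of sh*Pax6* retinas was 3.36, whereas that of *Vamp1-203* was -1.98, both called. These transcripts were chosen after their values were seen, and the *Vamp1-201* fold in sh*Pax6* retinas depends on the pseudocount because the NMDA libraries are listed at 0.

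**Figure D5:**
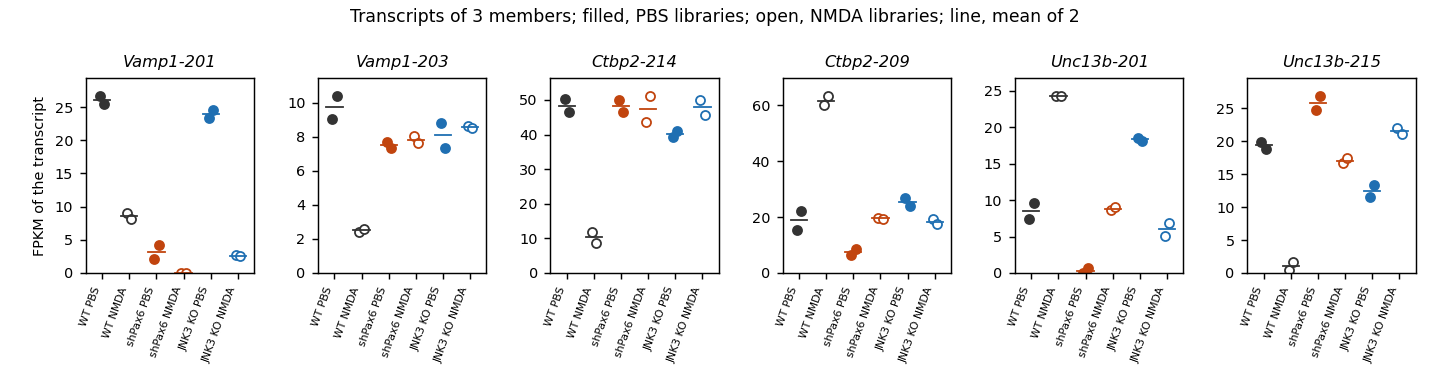
FPKM of 2 transcripts each of *Vamp1*, *Ctbp2* and *Unc13b* is shown by library, with PBS libraries filled, NMDA libraries open, lines at the mean of 2 libraries and axes that start at 0. *Vamp1-201* drops to 0 in shPax6 NMDA libraries while *Vamp1-203* holds, and in WT NMDA libraries *Ctbp2-214* and *Unc13b-215* drop while *Ctbp2-209* and *Unc13b-201* stand at their highest.

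Across the transcripts, 134 of the 227 listed for the members passed the filter. In WT retinas 68 were called lower and 4 higher after NMDA (all transcripts 20.9% and 8.91%), in sh*Pax6* retinas 12 and 2 (2.71% and 3.25%) and in JNK3 KO retinas 3 and 0 (0.368% and 0.288%). After the length correction the WT counts were 42 lower and 11 higher (all transcripts 11.2% and 16.3%). Under PBS 8 were lower in sh*Pax6* than in WT retinas (1.12%) and 0 in JNK3 KO retinas (0.0641%), and the WT response was lower than that of sh*Pax6* retinas for 37 and higher for 5 (15.3% and 5.63%) and lower than that of JNK3 KO retinas for 42 and higher for 4 (15.4% and 7.56%). With the correction these were 19 lower and 18 higher (7.47% and 11.5%) and 28 lower and 18 higher (7.57% and 13.4%). The 4 that rose in WT were *Ctbp2-209*, *Napb-202*, *Syt11-202* and *Sv2a-203*, and in 3 of these genes, *Ctbp2*, *Napb* and *Syt11*, another transcript was called lower in the same libraries. *Napb-202* went from 0 and 0.81 FPKM to 39.4 and 19.9 FPKM while *Napb-201* went from 92.5 and 87.1 to 0.78 and 17.3 FPKM. *Syt11-202*, whose start lies 23113 bases inside the gene, went from 0.86 and 0 to 41.8 and 41.3 FPKM while *Syt11-201* went from 69.4 and 71.1 to 11.9 and 10.96 FPKM. *Napb-202* and *Syt11-202* were under 5 FPKM in the 8 libraries of the other genotypes. *Unc13b-201* and *Unc13b-215* share both ends and differ in length, 6354 against 14754 bases. *Unc13b-201* was listed at 7.38 and 9.65 FPKM after PBS and 24.3 and 24.3 FPKM after NMDA in WT, at 0 and 0.64 against 8.6 and 9.03 FPKM in sh*Pax6* and at 18.5 and 18.2 against 5.14 and 6.81 FPKM in JNK3 KO libraries, and *Unc13b-215* at 19.9 and 18.9 FPKM after PBS and 0.38 and 1.62 FPKM after NMDA in WT, at 24.8 and 26.9 against 16.7 and 17.4 FPKM in sh*Pax6* and at 11.5 and 13.4 against 22 and 21.1 FPKM in JNK3 KO libraries. The shorter form was highest in WT NMDA and nearly absent in sh*Pax6* PBS libraries, where the longer form was highest, and within WT the shorter form made up 12.2% of *Unc13b* transcripts under PBS and 85.4% after NMDA. Apart from *Ctbp2*, the transcripts in this paragraph were chosen after their values were seen. The FPKM and shares given for single transcripts are without the length correction, although the WT response moved with length. They also rest on the split of reads among overlapping transcripts by RSEM. Whether the use of these forms changed was therefore not settled.

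NSF and its adaptors take spent SNARE complexes apart. *Nsf*, the most abundant of the 3 outside WT NMDA libraries, was listed at 179.6 and 187 FPKM after PBS and 106 and 101.4 FPKM after NMDA in WT, at 151 and 161 against 136 and 135 FPKM in sh*Pax6* and at 178 and 172 against 151 and 154 FPKM in JNK3 KO libraries. It was lowest in WT NMDA, with -0.82 (SE 0.05, adjusted p = 1.07e-06), and -0.15 after the length correction. *Napb*, the neuronal adaptor, was listed at 94.3 and 89.2 FPKM after PBS and 40.2 and 37.3 FPKM after NMDA in WT, at 58.5 and 64.7 against 44.2 and 47.6 FPKM in sh*Pax6* and at 78.1 and 81.97 against 73.7 and 74.7 FPKM in JNK3 KO libraries, and the fall of -1.24 in WT was -0.33 and not called after the correction. Its WT response differed from that of JNK3 KO retinas by -1.13 (SE 0.10, adjusted p = 2.19e-05), or -0.13 after the correction. *Napa*, the general adaptor, ranged from 99.2 to 169 FPKM and was highest in WT NMDA, with 0.60 (SE 0.08, adjusted p = 0.000159), under the fold limit. The WT value was 0.33 after the length correction and 0.02 with TPM scaling.

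The role group of calcium sensors holds synaptotagmins and *Doc2b*. The label follows the gene families and does not say that each member triggers fusion. *Syt1*, the main sensor of fast release, was listed at 334 and 328 FPKM after PBS and 157 and 162 FPKM after NMDA in WT, at 273 and 289 against 232 and 244 FPKM in sh*Pax6* and at 298 and 303 against 311 and 307 FPKM in JNK3 KO libraries. Both WT NMDA libraries lay below the other 10, and the fall of -1.05 became -0.06 after the length correction. The WT and JNK3 KO responses differed by -1.09 (SE 0.06, adjusted p = 2.03e-06), and this too was 0.01 after the correction. *Syt2*, the sensor of fast-spiking terminals, was listed at 12.4 and 11.1 FPKM after PBS and 7.14 and 8.62 FPKM after NMDA in WT, at 5.37 and 5.08 against 4.68 and 2.94 FPKM in sh*Pax6* and at 10.8 and 8.91 against 12.4 and 11.7 FPKM in JNK3 KO libraries. Both sh*Pax6* groups lay below all WT and JNK3 KO libraries, and no NMDA response was called. *Syt4*, *Syt11* and *Doc2b* had ranges of 15.6 to 44.6, 31.2 to 86.0 and 14.9 to 53.4 FPKM, and none was called after NMDA in any genotype. *Doc2b*, a high-affinity sensor of spontaneous release, was the member most above WT in sh*Pax6* retinas under PBS. Its difference was 0.85 (SE 0.07, adjusted p = 9.91e-05), under the fold limit. For *Doc2b* the sh*Pax6* libraries, at 45.0 to 53.4 FPKM, lay above all 8 others, at 14.9 to 27.9 FPKM.

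Among the proteins of the vesicle membrane, *Syp* (synaptophysin) was the most abundant and stood highest where the others stood low. It was listed at 417 and 420.5 FPKM after PBS and 647 and 661 FPKM after NMDA in WT, at 459 and 448 against 457 and 476 FPKM in sh*Pax6* and at 484 and 476 against 406 and 405 FPKM in JNK3 KO libraries, highest in both WT NMDA libraries. The WT difference was 0.64 (SE 0.04, adjusted p = 8.22e-07), under the fold limit, and 0.84 after the length correction, whereas with TPM scaling it was 0.07 and with quantile normalization -0.54, neither called. The WT response exceeded that of JNK3 KO retinas by 0.89 (SE 0.05, adjusted p = 2.06e-06), which passed the fold limit only after the correction, at 1.08. *Sv2b*, the SV2 of ribbon terminals, was listed at 114 and 115 FPKM after PBS and 57.8 and 57.7 FPKM after NMDA in WT, at 131 and 134 against 113 and 115 FPKM in sh*Pax6* and at 103 and 107 against 118 and 115 FPKM in JNK3 KO libraries, with -0.99 (SE 0.05, adjusted p = 2.11e-07) in WT, just short of the fold limit. Its WT response differed from that of JNK3 KO retinas by -1.14 (SE 0.06, adjusted p = 1.46e-06), and the sign changed to 0.15 after the length correction. *Sv2c*, a rare SV2, was listed at 6.99 and 6.92 FPKM after PBS and 1.05 and 1.32 FPKM after NMDA in WT, at 2.27 and 2.54 against 1.25 and 0.78 FPKM in sh*Pax6* and at 4.53 and 4.56 against 2.3 and 2.38 FPKM in JNK3 KO libraries. The WT PBS libraries were the highest and both NMDA groups of WT and sh*Pax6* retinas the lowest. It fell with -2.46 (SE 0.25, adjusted p = 2.36e-05) in WT and -1.20 (SE 0.25, adjusted p = 0.00598) in sh*Pax6* retinas, and the JNK3 KO value was -0.93 (SE 0.25, adjusted p = 0.0453), called only after the length correction at -1.23. *Sv2c* in WT was -0.86 and not called after the correction, and the sh*Pax6* call was lost at -0.89 without sh*Pax6* NMDA replicate 2. The WT response differed from the others by -1.27 and -1.54, but after the correction by 0.18 and 0.36, and the first was -0.96 and not called without sh*Pax6* NMDA replicate 1. *Sv2a*, the SV2 found in most terminals, ranged from 43.4 to 115 FPKM and was not called.

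Rab3 proteins bring vesicles to RIM. *Rab3a*, the most abundant, was listed at 219 and 229 FPKM after PBS and 238 and 264 FPKM after NMDA in WT, at 198 and 169 against 117 and 113 FPKM in sh*Pax6* and at 224 and 231 against 154 and 146 FPKM in JNK3 KO libraries. It was lower after NMDA in sh*Pax6* and JNK3 KO libraries, with -0.67 (SE 0.08, adjusted p = 0.000303) and -0.60 (SE 0.08, adjusted p = 0.0021), both under the fold limit, and not in WT, with 0.16 (SE 0.08, adjusted p = 0.107). *Rab3a* had a weighted spliced length of 1375 bases, and the WT value was -0.45 (adjusted p = 0.00136) after the length correction. *Rab3c* was listed at 16.7 and 14.97 FPKM after PBS and 4.28 and 3.84 FPKM after NMDA in WT, at 12.1 and 13.5 against 2.31 and 3.2 FPKM in sh*Pax6* and at 11.9 and 13.8 against 10.1 and 9.46 FPKM in JNK3 KO libraries. The WT and sh*Pax6* NMDA libraries were all below 5 FPKM and the JNK3 KO NMDA libraries above 9 FPKM. It fell with -1.94 (SE 0.17, adjusted p = 1.05e-05) in WT and -2.19 (SE 0.17, adjusted p = 2.32e-05) in sh*Pax6* retinas, and the WT value was -0.44 and not called after the correction. The WT and JNK3 KO responses differed by -1.55 (SE 0.24, adjusted p = 0.000557), and by 0.21 after the correction. *Rab3b* ranged from 0.98 to 5.89 FPKM, was not called and had the widest spread between libraries, with -1.01 (SE 0.59, adjusted p = 0.237) in sh*Pax6* retinas.

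The next comparison asks whether the presynaptic RNAs differed between genotypes without NMDA. The PBS eyes had themselves been injected, and the sh*Pax6* eyes had also received AAV. Under PBS, 5 members were lower in sh*Pax6* than in WT retinas and 0 were higher (13.2% of the members against 3.9% of all genes lower). *Cplx1* had -2.24 (SE 0.08, adjusted p = 1.21e-06), *Vamp1* -1.69 (SE 0.11, adjusted p = 2.46e-05), *Sv2c* -1.50 (SE 0.25, adjusted p = 0.00366), *Syt2* -1.15 (SE 0.21, adjusted p = 0.00656) and *Syn1* -1.07 (SE 0.09, adjusted p = 0.000127). *Cplx1*, *Vamp1*, *Sv2c* and *Syt2* stayed called after the length correction (all genes 3.13% lower), and *Syn1* was then -0.97 and not called. *Syn1* was -0.95 and not called without sh*Pax6* PBS replicate 1, and *Syt2* -1.07 and not called without WT PBS replicate 1. The other 33 members lay between -0.90 (*Syt11*) and 0.85 (*Doc2b*), and 17 of the 38 passed the adjusted p with no fold limit downwards and 5 upwards (all genes 11.2% and 5.36%). Among the 5 that passed upwards were *Cplx4*, *Stx3* and *Sv2b* of the ribbon terminal, all at 0.27 or less, with *Rims2* and *Doc2b*. Over the same libraries 7 of the 14 RGC markers and 0 of the 12 amacrine markers were called lower, and 6 of the 8 neutrophil markers were. Of 10 microglia and macrophage markers, 4 were called higher and 1 lower. They summed to 61.5 to 67.0 FPKM in WT PBS and 169 to 183 FPKM in sh*Pax6* PBS libraries. Of 9 Müller glia markers, 1 was called higher and 0 lower. Their sums were 1235 to 1269 and 1940 to 2045 FPKM. Of 10 rod and 9 cone markers, 1 and 2 were called higher (all genes 0.522%) and 0 lower. The rod markers summed to 26860 to 27020 FPKM in WT PBS and 35710 to 38560 FPKM in sh*Pax6* PBS libraries. For the cone markers the sums were 1199 to 1218 and 2047 to 2164 FPKM. The part of these cells in the differences was not tested, and infection with AAV and the knockdown of *Pax6* cannot be told apart.

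Between JNK3 KO and WT retinas under PBS, 0 of the 38 members were called, where 0.231% of all genes tested were. At an unadjusted p under 0.05 by limma, 12 members passed (all genes 15.1%), and with an adjusted p and no fold limit 1 did (all genes 1.51%), *Syp* with 0.20 (SE 0.04, adjusted p = 0.0419). The largest difference was -0.89 (SE 0.32, adjusted p = 0.219) for *Syn3*, and the median was -0.15, or -0.05 after the length correction.

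The promoters of *Cplx1*, *Vamp1* and *Syn1* are printed from the 5 members called lower in sh*Pax6* than in WT retinas under PBS. Those of *Cplx1* and *Vamp1* were taken because their differences were the largest, and that of *Syn1* for the match to the cAMP response element in it. Each is the 250 bases before the RefSeq start on GRCm38.p6, read 5′ to 3′ on the gene's strand, with capitals for GGGCGG (the GC box) or TGACGTC (the core of the cAMP response element) on either strand. The *Cplx1* promoter lies at chr5:108550028-108550277, minus strand, that of *Vamp1* at chr6:125215331-125215580, plus strand, and that of *Syn1* at chrX:20920919-20921168, minus strand.
Cplx1: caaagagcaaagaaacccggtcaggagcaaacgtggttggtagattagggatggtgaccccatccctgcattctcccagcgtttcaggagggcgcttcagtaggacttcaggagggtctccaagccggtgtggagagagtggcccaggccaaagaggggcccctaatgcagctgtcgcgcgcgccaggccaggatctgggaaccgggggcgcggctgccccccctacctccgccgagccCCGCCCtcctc
Vamp1: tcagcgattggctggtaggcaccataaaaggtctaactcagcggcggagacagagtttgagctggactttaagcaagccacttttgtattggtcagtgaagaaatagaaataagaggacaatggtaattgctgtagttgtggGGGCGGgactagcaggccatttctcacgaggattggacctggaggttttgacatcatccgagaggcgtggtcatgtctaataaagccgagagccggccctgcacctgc
Syn1: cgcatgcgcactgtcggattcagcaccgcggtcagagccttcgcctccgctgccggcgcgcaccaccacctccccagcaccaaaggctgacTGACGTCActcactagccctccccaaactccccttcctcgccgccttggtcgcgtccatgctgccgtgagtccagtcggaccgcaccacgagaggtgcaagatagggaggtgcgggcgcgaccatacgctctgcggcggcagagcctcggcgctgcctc
In *Cplx1* the GC box lies 11 bases and in *Vamp1* 108 bases before the start, counted to the first base of the match. The *Syn1* match begins 159 bases before the start and reads the same on both strands, so its 2 matches overlap. GGGCGG stood in 22 of the 39 member promoters (56.4%) and in 32.7% of all promoters, TGACGTC in 3 (7.69%) and in 2.78%, and CACGTG, an E-box, in 5 (12.8%) and in 6.02%. The member promoters were also richer in G and C, with a median of 59.6% against 52.4% over all promoters. The part of this in the motif shares was not tested. TTCACGC, a core of the PAX6 paired-domain site, stood in 0 of the 39 and in 1.03% of all, which says only that these letters are not in these windows. Promoters of *Rims2*, *Snap25*, *Vamp2*, *Syt4*, *Cplx4*, *Syn3* and *Doc2b* were not analysed here.

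The responses themselves were then compared between genotypes, as the difference of log2 differences. Against sh*Pax6* retinas, 8 members had a lower response in WT, namely *Erc1*, *Unc13a*, *Pclo*, *Vamp1*, *Sv2c*, *Unc13b*, *Snap25* and *Unc13c*, which is 21.1% of the members where 21.7% of all genes were called lower. The median was -0.18, beside -0.28 over all genes. After the length correction the picture turned, with 1 member lower (*Snap25*) and 9 higher (all genes 11% and 7.38%) and a median of 0.37. The 9 were *Cplx2* at 1.86, *Erc2* at 1.65, *Rab3c* at 1.62, *Rims3* at 1.21, *Sv2a* at 1.17, *Syn2* at 1.09, *Syn1* at 1.05, *Syt4* at 1.03 and *Bsn* at 1.00. When the longest transcript gave the length, 4 were higher and 0 lower. Against JNK3 KO retinas, 14 members had a lower response in WT (36.8%, all genes 20.1%), and the median was -0.64, beside -0.03. After the length correction 2 were lower (*Snap25* and *Syn3*), 3 higher (*Bsn*, *Erc2* and *Syp*) (all genes 9.74% and 7.02%), and the median was 0.11. Both differences share the WT libraries.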

How the data were processed

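The authors prepared poly(A) libraries from pooled retinal RNA, aligned the reads with STAR 2.7.1a to GRCm38.p6, and deposited the FPKM that RSEM 1.3.3 gave for genes and for transcripts. The submitters' processing notes also name edgeR 3.36.0 and R 4.1.0. FPKM divides by length and library total, so the depth behind a value is unknown.

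From the deposited FPKM, log2(FPKM + 0.1) was fitted with limma 3.58.1 (R 4.3.3) on all 6 groups together (6 residual degrees of freedom), for 16471 genes and 49940 transcripts with a group mean above 1 FPKM. P-values were adjusted by Benjamini-Hochberg over all of them. The pseudocount understates changes of low genes. The length correction subtracted from each library a lowess trend (span 0.3) on spliced length. A 2-sided exact permutation test of 2 against 2 libraries cannot go below p = 0.333, so none was used. Gene positions and transcript lengths came from a GENCODE annotation that matched 99.53% of gene identifiers. The spliced length of a gene was the mean length of its transcripts, weighted by their mean FPKM over the 12 libraries. It therefore rests partly on these data and on the split of reads by RSEM. The fit and its calls were tested on simulated data.

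The 38 members, the gene lists and the tests were chosen with earlier results of these data known. All members are named. Values by library are given for members called under PBS or between responses, the most abundant of each role and those of the ribbon and conventional lists.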

Additional observations from a re-analysis of the deposited data

Results flagged for a closer look

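The response to NMDA differed between genotypes, by the test of the difference itself, for 8 members between WT and sh*Pax6* retinas and for 14 between WT and JNK3 KO retinas. The WT response was the lower one in all 22. These are 21.1% of the members for sh*Pax6*, where 21.7% of all genes were lower, and 36.8% for JNK3 KO retinas, where 20.1% were. Corrected for length, 9 of the 10 called against sh*Pax6* and 3 of the 5 called against JNK3 KO retinas were higher in WT. On the log2 scale the WT response minus that of sh*Pax6* retinas was -1.85 for *Pclo*, -1.89 for *Unc13a*, -1.25 for *Unc13b*, -1.15 for *Unc13c*, -2.15 for *Erc1*, -1.18 for *Snap25*, -1.47 for *Vamp1* and -1.27 for *Sv2c*. The WT response minus that of JNK3 KO retinas was -1.94 for *Rims1*, -1.35 for *Rims2*, -2.45 for *Pclo*, -1.67 for *Unc13a*, -1.32 for *Unc13b*, -2.41 for *Unc13c* and -2.37 for *Erc1*. It was -1.52 for *Snap25*, -1.09 for *Syt1*, -2.29 for *Syn3*, -1.14 for *Sv2b*, -1.54 for *Sv2c*, -1.55 for *Rab3c* and -1.13 for *Napb*. After the length correction *Snap25* stayed called in both and *Syn3* in the second, and the part of length in the other values was not tested further.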

How the results depend on the processing

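In WT retinas, the count of members called after NMDA was 6 with the length correction, 7 with the longest transcript as the length (an alternative chosen after seeing the data) and 33 with no fold limit, against 18. In sh*Pax6* retinas it was 6 with the groups compared alone and 25 with no fold limit, against 10, and in JNK3 KO retinas 13 with no fold limit, against 4. Under PBS, no fold limit gave 22 for sh*Pax6* (5 with the limit) and 1 for JNK3 KO retinas (0). The difference between WT and sh*Pax6* responses gave 16 with TPM, 4 with the longest transcript and 26 with no fold limit, against 8, and the 10 called after the length correction were 9 higher and 1 lower. That between WT and JNK3 KO responses gave 22 with TPM, 5 with the length correction, 3 with the longest transcript and 26 with no fold limit, against 14. The median log2 difference of the members in WT was -1.57 with TPM, -1.07 with 75th percentile scaling, -1.29 with quantile normalization, -0.30 with the length correction and -0.42 with the longest transcript, against -0.99. By quantile normalization, length correction and longest transcript it was -0.15, -0.23 and -0.24 in JNK3 KO retinas (-0.19) and -0.36, -0.23 and -0.23 under PBS in sh*Pax6* (-0.30). Under PBS in JNK3 KO retinas it was -0.21 with TPM, -0.24 with quantile normalization, -0.05 with the length correction and -0.08 with the longest transcript (-0.15). For WT minus sh*Pax6* it was -0.71 with TPM, 0.37 with the length correction and 0.29 with the longest transcript (-0.18), and for WT minus JNK3 KO -1.23, 0.11 and -0.12, with -0.73 by 75th percentile scaling and -0.85 by quantile normalization (-0.64). Leaving out 1 library gave medians of -1.01 to -0.95 in WT, -0.56 to -0.47 in sh*Pax6* and -0.21 to -0.18 in JNK3 KO retinas after NMDA, -0.40 to -0.30 and -0.17 to -0.12 under PBS in sh*Pax6* and JNK3 KO retinas, and -0.41 to -0.10 and -0.64 to -0.59 for the 2 differences.

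Values that changed sign, with at least one of the values called, were these. With the longest transcript, *Unc13b* after NMDA in WT was 0.35. With the length correction, WT minus sh*Pax6* was 1.00 for *Bsn*, 0.25 for *Unc13c*, 0.18 for *Sv2c* and 1.16 for transcript *Sv2a-201*, and with the longest transcript 0.23 for *Unc13b* and 0.06 for *Unc13c*. With the length correction, WT minus JNK3 KO was 1.37 for *Bsn*, 0.16 for *Unc13b*, 0.01 for *Syt1*, 0.15 for *Sv2b*, 0.36 for *Sv2c* and 0.21 for *Rab3c*, and with the longest transcript 1.17 for *Bsn* and 0.62 for *Unc13b*. The causes were not tested.

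Leaving out 1 library at a time gave 18 to 19 members called in WT, 9 to 12 in sh*Pax6* and 3 to 6 in JNK3 KO retinas after NMDA, 4 to 5 and 0 to 0 under PBS, and 7 to 11 and 13 to 15 for the differences from sh*Pax6* and JNK3 KO responses. With the replicate number as a block the counts were 18, 10, 4, 5, 0, 8 and 14, as without it. The numbers do not pair the samples, since the deviations of same-numbered libraries correlated at -0.10 to 0.09 over 15 pairs of groups. Over all members, comparisons, alternatives and fits without 1 library, 6188 of 6384 values kept their side of the threshold. Values called in neither fit count as kept, among them 186 whose sign changed. The count therefore does not measure how firm the calls are. With 2 pooled libraries a group and no read counts, the depth behind low values is unknown.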
